A study of Mus musculus with 4 samples.

Results

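The genes for the alpha subunits of heterotrimeric G proteins were followed in NSCL61-sox11 and in its parent line NSCL61. They were read on all 38 probe sets that the array platform's annotation assigns to Gnai1, Gnai2, Gnai3, Gnao1, Gnaz, Gnas, Gnaq, Gna11, Gna12 or Gna13 alone, out of 45101 probe sets on the array and 18194 genes with a probe set of their own. NSCL61-sox11 is 1 line that expresses the transcription factor Sox11, and it was measured on 2 arrays. NSCL61, a line that the labels call neural stem cells resembling glioma-initiating cells, was likewise measured on 2 arrays. Both lines are p53-/- on a C57BL/6 background and come from brain at embryonic day 14.5. The published work on NSCL61 describes it as also carrying an oncogenic form of HRas, which the labels used here do not name. The growth medium given for all 4 arrays held PDGF at 10 ng/ml, bFGF and forskolin at 5 μM; forskolin activates adenylyl cyclase, an enzyme that G proteins regulate. The submitters' design text states that NSCL61-sox11 no longer formed tumours after transplantation.

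A G alpha subunit binds GTP when a receptor activates it, separates from the beta and gamma subunits and acts on an effector until it hydrolyses the GTP. The Gi class (Gnai1, Gnai2, Gnai3, Gnao1, Gnaz) lowers adenylyl cyclase activity and carries signals of many chemokine, lysophospholipid and neurotransmitter receptors. Gs (Gnas) raises adenylyl cyclase activity, the Gq class (Gnaq, Gna11) activates phospholipase C beta, and the G12/13 class (Gna12, Gna13) activates exchange factors of the small GTPase RhoA. In the developing brain Gi subunits are also known for a role, with GoLoco proteins, in orienting the mitotic spindle of progenitor cells.

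The family was chosen by the level of Gnai1 on these arrays, which had the 6th largest rise of 13084 genes in this comparison. The differences of the members between the lines are therefore given as a description, with a moderated standard error (SE) and with whether the probe set was called, but without p-values. A probe set was called where its Benjamini-Hochberg adjusted p was under 0.05 in limma's fit across the 27022 brightest probe sets. All values are the authors' processed levels on a scale read as log2. Levels of different probe sets are not compared with each other, because probes differ in brightness for the same amount of RNA. Each array read bulk RNA of a culture, in which fewer cells expressing a gene and less RNA per cell cannot be told apart. Whether the 2 arrays per line stem from separate cultures is not stated, and their spread may be technical.

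All 6 probe sets of Sox11 were higher in NSCL61-sox11, by 0.38 to 2.90 (log2). Across the tested probe sets Pearson's r was 0.994 within NSCL61-sox11, 0.995 within NSCL61 and 0.968 to 0.972 between the lines. Of 6 tested markers of neural stem and progenitor cells none rose and 3 fell in NSCL61-sox11 (Sox2, Pax6 and Vim), where 10.0% of all tested genes rose and 9.19% fell. Sox2 differed by -1.70 (3.24-fold) on 1 tested probe set. Pax6, with a difference of -0.45, was called on 2 of 4 tested probe sets and Vim, with a difference of -0.21, on 1 of 3. Nes, Msi1 and Hes5 were not called. Fabp7 and Prom1 lay below the level filter in both lines. The log2 of the summed signal of the 8 such markers with a probe set was 14.24 to 14.32 in NSCL61-sox11 and 14.52 to 14.58 in NSCL61. That sum mostly follows Vim, the brightest, which read 14.14 and 14.21 in NSCL61-sox11 and 14.36 and 14.40 in NSCL61. For microglia and blood cells 0 of 2 tested markers were called (summed log2 level 7.64 to 7.73 in NSCL61-sox11 and 7.75 to 7.78 in NSCL61), and Ptprc lay between 3.04 and 3.31. For endothelial and mural cells 1 of 4 tested was called, namely Rgs5, upwards, with summed levels of 8.49 to 8.73 in NSCL61-sox11 and 8.17 to 8.34 in NSCL61. Of 5 tested markers of fibroblasts and meninges, 3 rose, where 10.0% of all tested genes rose. They were Col1a1, by 2.99 (7.93-fold), Col1a2, by 1.10 (2.14-fold), and Postn, by 3.33 (10.1-fold). The summed level was 11.10 to 12.29 in NSCL61-sox11 and 9.79 to 10.55 in NSCL61. Col3a1 (difference 1.04) and Dcn (0.36) were not called, and Lum, below the level filter, differed by -0.20. Postn read 8.27 and 10.59 on the NSCL61-sox11 arrays. The 3 that rose changed in the direction of Gnai1, and the part of such cells in the Gnai1 difference was not tested.

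The promoters of Gnai1 and Gnai3 are shown because these genes encode closely related Gi subunits and differed in the size of their change between the lines. The RefSeq table (GRCm38.p6) gave a promoter, 250 bases before to 50 after a transcript start, for 8 of the 10 genes. Capitals mark the GC box, GGGCGG on either strand, which binds SP family factors and stood in 35.6% of 32817 promoters of this length. The Gnai1 promoter lies on the minus strand at chr5:18360364-18360663 and the Gnai3 promoter on the minus strand at chr3:108146103-108146402.
Gnai1: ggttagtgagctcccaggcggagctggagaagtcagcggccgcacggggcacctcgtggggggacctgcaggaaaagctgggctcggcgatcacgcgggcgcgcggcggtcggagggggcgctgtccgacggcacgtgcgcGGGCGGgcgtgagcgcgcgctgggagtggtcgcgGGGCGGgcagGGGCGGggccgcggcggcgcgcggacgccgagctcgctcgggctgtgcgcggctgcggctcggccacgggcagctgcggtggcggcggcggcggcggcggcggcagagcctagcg
Gnai3: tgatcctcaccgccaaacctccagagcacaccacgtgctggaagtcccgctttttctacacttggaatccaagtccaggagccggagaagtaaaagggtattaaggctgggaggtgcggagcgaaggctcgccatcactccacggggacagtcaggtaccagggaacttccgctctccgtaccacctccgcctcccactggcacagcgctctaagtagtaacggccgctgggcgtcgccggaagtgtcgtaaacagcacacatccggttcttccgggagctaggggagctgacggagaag
The Gnai1 window held 3 GC boxes, 53 CpG dinucleotides and 80.0% G and C. The Gnai3 window held no GC box, 21 CpG dinucleotides and 59.3% G and C, and the median over all promoters was 7 CpG dinucleotides and 52.7%. Among the other members GC boxes numbered 7 for Gna12, 5 for Gnaq, 3 for Gna13, 2 for Gna11, 0 for Gnao1 and 0 to 3 in the Gnas windows. A link of GC boxes to the differences between the lines was not tested. The letters ACAAT, a core of motifs bound by Sox factors, are in neither window on either strand, and 31.0% of all promoters held them. The letters TGACG, part of the cAMP response element, occurred 1 time in the Gnai3 window, was not in the Gnai1 window, and stood in 20.8% of all promoters. These are matches of letters and do not show binding.

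Gnai1, which encodes an inhibitory subunit abundant in brain, was far higher in NSCL61-sox11, as all 3 of its probe sets showed. On the brightest, the 2 NSCL61-sox11 arrays read 11.31 and 11.29, against 7.62 and 7.87 on the NSCL61 arrays. The arrays of the lines did not overlap, and the difference of 3.55 (SE 0.11) is 11.7-fold. A further Gnai1 probe set read 10.63 and 10.52 in NSCL61-sox11 and 7.34 and 7.20 in NSCL61, a difference of 3.31 (SE 0.10). The dimmest Gnai1 probe set read 8.71 and 8.67 in NSCL61-sox11 and 5.90 and 5.94 in NSCL61, a difference of 2.77 (SE 0.09). The dimmest probe set thus gave a 6.84-fold and the middle one a 9.92-fold difference, and the SD between the arrays of a line was at most 0.18. All 3 were called, under each alternative that holds them, and the difference of the brightest ranged from 3.15 with poly-A scaling to 3.68 without NSCL61 array 2.

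**Figure D1:**
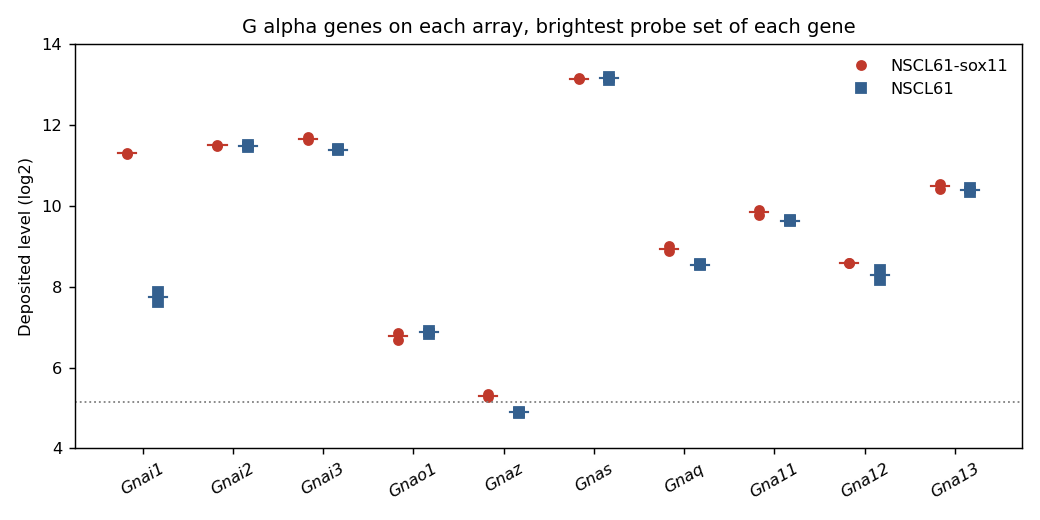
Level of each G alpha gene (log2, vertical axis) on the 2 arrays of NSCL61-sox11 (red circles) and of NSCL61 (blue squares), on the gene's brightest probe set; short lines are means and the dotted line is the level filter, 5.15. Gnai1 stands at 11.31 and 11.29 in NSCL61-sox11 and at 7.62 and 7.87 in NSCL61, while no other gene's means differ by more than 0.41; heights of different genes are not comparable.

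The closest relatives of Gnai1 differed little. Gnai2, a broadly expressed Gi subunit, read 11.50 and 11.49 in NSCL61-sox11 and 11.46 and 11.50 in NSCL61 on its brightest probe set, where the lines overlapped (difference 0.012, SE 0.06). Its other probe set read 11.14 and 11.39 in NSCL61-sox11 and 11.07 and 11.03 in NSCL61 (difference 0.22, SE 0.09), without overlap, and was not called. Gnai3, also broadly expressed, read 11.62 and 11.70 in NSCL61-sox11, against 11.37 and 11.40 in NSCL61, a called difference of 0.28 (SE 0.06), or 1.21-fold. Its dimmer probe set differed by 0.20 (SE 0.11) and was not called. Omitting NSCL61 array 1 (difference 0.26), NSCL61 array 2 (0.29) or NSCL61-sox11 array 2 (0.23) ended the Gnai3 call, as did averaging its probe sets (0.24).

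Gnao1, the Go subunit that is prominent in neurons and growth cones, gave different answers on its 3 probe sets. The brightest read 6.69 and 6.85 in NSCL61-sox11 and 6.84 and 6.91 in NSCL61, overlapping, with a difference of -0.10 (SE 0.11). The next read 6.59 and 6.62 in NSCL61-sox11, against 5.54 and 5.73 in NSCL61, a called difference of 0.97 (SE 0.11). The remaining one read 5.96 and 6.16 in NSCL61-sox11, against 5.53 and 5.45 in NSCL61, a called difference of 0.57 (SE 0.12). That call ended when NSCL61 array 1 (difference 0.61), NSCL61 array 2 (0.53) or NSCL61-sox11 array 2 (0.46) was omitted. The direction for Gnao1 as a gene thus depends on the probe set. The mean of all 3 gave 0.48, which was called, and which transcripts each probe set detects was not examined.

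Gnaz, which encodes a Gi class subunit insensitive to pertussis toxin, was dim, and both of its probe sets lay below the level filter. On the brighter, NSCL61-sox11 read 5.27 and 5.34 and NSCL61 read 4.90 and 4.89. The other read 4.98 and 5.10 in NSCL61-sox11 and 4.49 and 4.40 in NSCL61. Both were higher in NSCL61-sox11 without overlap, by 0.41 (SE 0.11) and 0.60 (SE 0.11) in a fit of all probe sets, and at such levels the size of a difference is uncertain. In that fit the dimmer was called and the brighter was not. The mean of the 2 probe sets, at 0.50, was called, as was the brighter without the intensity trend.

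Gnas, the stimulatory subunit gene and an imprinted locus with several overlapping transcripts, was close to equal in the lines. Its only tested probe set read 13.16 and 13.13 in NSCL61-sox11 and 13.11 and 13.19 in NSCL61, overlapping (difference -0.0084, SE 0.05). The other 4 Gnas probe sets lay between 3.998 and 4.94 on all arrays, below the level filter, with the lines overlapping on each. They may report other transcripts of the locus, which the annotation does not separate. The antisense transcript Gnasas1 was also low, with 4.18 and 4.25 in NSCL61-sox11 and 4.43 and 4.49 in NSCL61.

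Gnaq, which couples receptors to phospholipase C beta, was modestly higher in NSCL61-sox11 on most of its 7 probe sets. The brightest read 8.87 and 9.01 in NSCL61-sox11, against 8.54 and 8.56 in NSCL61, a called difference of 0.39 (SE 0.09), or 1.31-fold. Of the 7, 4 were called, with differences of 0.35 to 0.52. The other 3 differed by -0.071 to 0.15, and on the dimmest, near 5.3, NSCL61-sox11 was the lower line. For the brightest, omitting NSCL61 array 1 (difference 0.39), NSCL61 array 2 (0.40) or NSCL61-sox11 array 2 (0.33) ended the call, as did averaging the Gnaq probe sets (0.26). Gna11, its close relative, read 9.78 and 9.89 in NSCL61-sox11, against 9.62 and 9.64 in NSCL61, without overlap. Its 2 probe sets differed by 0.20 (SE 0.08) and 0.19 (SE 0.08), and neither was called.

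Gna12 and Gna13, which act on RhoA exchange factors, had no called probe set. Gna12 read 8.60 and 8.58 in NSCL61-sox11, against 8.17 and 8.42 in NSCL61, a difference of 0.29 (SE 0.11) that was 0.17 when NSCL61 array 1 was left out. The other tested Gna12 probe sets differed by 0.44 (SE 0.13) and 0.42 (SE 0.13), all without overlap, and the 2 that lay below the level filter differed by 0.20 and -0.16. Gna13 read 10.42 and 10.53 in NSCL61-sox11 and 10.34 and 10.44 in NSCL61, overlapping, with a difference of 0.088 (SE 0.08). Over its 7 probe sets the differences ran from 0.038 to 0.21, and the lines overlapped on 5 of them.

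Of the 38 probe sets, 30 passed the level filter, and these represent 9 of the 10 genes. Among the 30, 10 were called upwards and 0 downwards, where 8.99% of all 27022 tested probe sets were called upwards and 8.32% downwards. By their brightest tested probe set, 3 of 9 genes (Gnai1, Gnai3 and Gnaq) were called upwards, where 10.0% of all genes were (19.2% in either direction). The NSCL61-sox11 arrays lay above the NSCL61 arrays without overlap on 20 of the 30 and below on 1, against 28.1% and 32.4% of all tested probe sets. At least 2-fold differences occurred on 3 of the 30, all of Gnai1, against 2.81% of all tested probe sets. The median difference of the 30 was 0.21, of the 27 other than Gnai1 0.20, and of all tested probe sets -0.019. Because the family was taken up on this comparison, nothing is read from these shares.

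**Figure D2:**
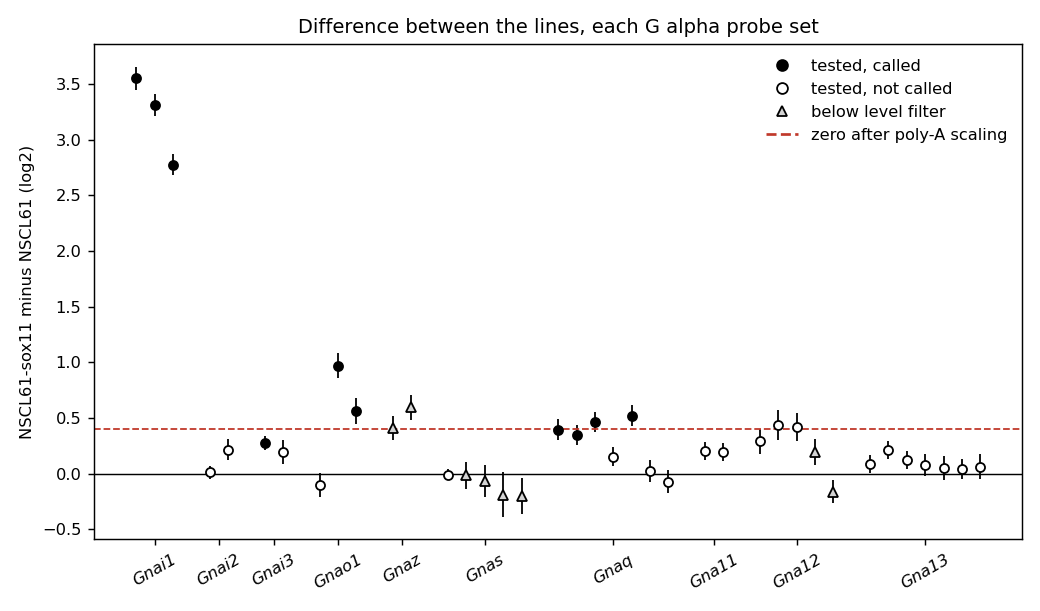
Difference between the lines (NSCL61-sox11 minus NSCL61, log2, vertical axis) for each of the 38 G alpha probe sets, ordered within a gene from bright to dim, with moderated SE as bars; filled circles were called, open circles were not, and triangles lay below the level filter. The 3 Gnai1 probe sets stand at 2.77 to 3.55 and all others at or below 0.97; the dashed line marks the zero after scaling to poly-A controls, at 0.40.

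The small differences depend on the scale. With arrays scaled to their poly-A controls, every difference fell by 0.40, the median of all genes was -0.42, and 9 of the 30 member probe sets were above 0 and 21 below. On that scale 3 were called upwards and 0 downwards, against 2.06% and 7.38% of all tested probe sets. With hybridisation controls, which lowered every difference by 0.22, 13 were above 0 and 17 below. There 4 were called upwards and 0 downwards, against 4.60% and 17.2% of all tested probe sets. Gnai3, Gnaq, Gna11, Gna12 and Gna13 changed sign on their brightest probe sets with poly-A scaling, and Gnai2 did so under each control scaling. Neither Gnai3, Gnaq nor the dimmest Gnao1 probe set was called under either control scaling, and the middle Gnao1 probe set, at 0.57, was not called with poly-A scaling. Gnai1 kept its direction on all of its probe sets under each scaling.

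The subunit composition of the lines was compared by the change, between the lines, of ratios within an array. A ratio within an array still holds the brightness of its probe sets and is no measure of relative amount. Its change between the lines cancels array scaling and any fixed brightness of a probe set. The change still depends on which probe set is used, as the Gnai1 differences of 2.77 to 3.55 show. Each gene's level on its brightest probe set was taken relative to the mean of the 10 genes on the same array. Gnai1 stood at 1.59 and 1.51 in NSCL61-sox11 and at -1.58 and -1.41 in NSCL61, so that its relative signal was higher by 3.04 (log2) in NSCL61-sox11. The mean of 10 includes Gnai1, which moves the values of all others down, so the other 9 were also set against their own mean change of 0.17. On that basis 5 lay above the mean (Gnai3, Gnaz, Gnaq, Gna11 and Gna12, by 0.030 to 0.24) and 4 below (Gnai2, Gnao1, Gnas and Gna13, by -0.28 to -0.086). With the mean of each gene's probe sets Gnao1 lay above, at 0.23 instead of -0.28, and Gnai3 and Gna11 below, at -0.015 and -0.053. The spread between arrays of a line, as SD, was at most 0.12 for any gene in the ratios to the mean of 10.

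Ratios of pairs avoid that shared mean. The ratio of Gnai1 to Gnai2 was 11.6-fold higher in NSCL61-sox11, with log2 ratios of -0.19 and -0.20 in NSCL61-sox11 and -3.84 and -3.63 in NSCL61. The ratio of Gnai1 to Gnai3 was 9.68-fold higher, with -0.31 and -0.42 in NSCL61-sox11 and -3.75 and -3.52 in NSCL61. Against Gnas, the opposing regulator of adenylyl cyclase, the ratio was 11.8-fold higher in NSCL61-sox11. Over all 9 other members it was 8.80-fold to 12.6-fold higher. The ends of that range are Gnaz, which lay below the level filter, and Gnao1, whose probe sets disagreed; with the mean of each gene's probe sets the range was 6.53-fold to 9.32-fold, with Gnao1 at 6.65-fold. These ratios show unequal change and not how much of each subunit a cell holds. With 2 arrays against 2 no test of a ratio was made.

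**Figure D3:**
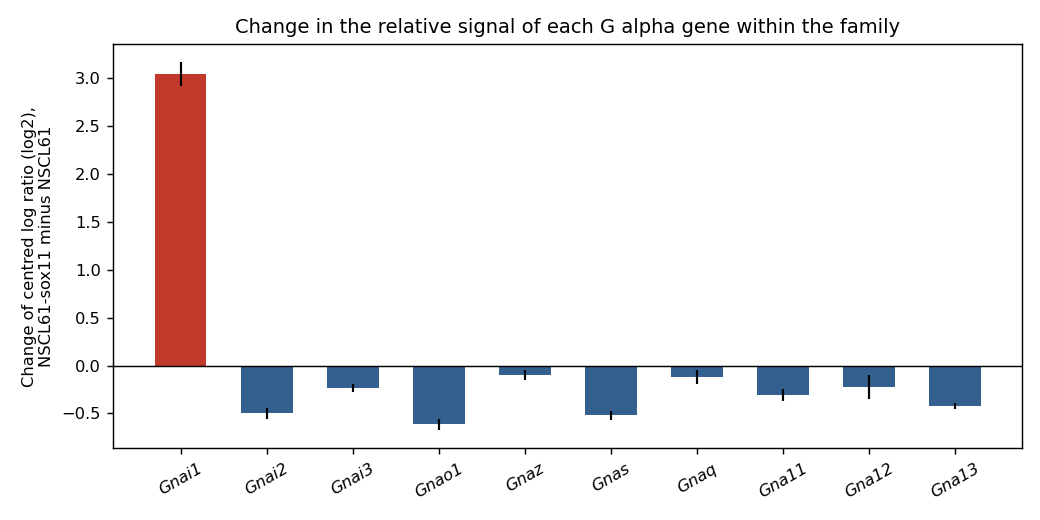
Change of each gene's centred log ratio (its log2 level minus the mean of the 10 G alpha genes on the same array), NSCL61-sox11 minus NSCL61; bars are differences of means over 2 arrays per line and black lines span the smallest to largest difference between an array of each line. Gnai1 changed by 3.04 and the other genes by -0.62 to -0.099; Gnai1 enters the mean and moves all other bars down, and the Gnao1 bar rests on 1 of 3 probe sets that disagreed.

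The genes closest to Gnai1 over the 4 arrays were found by the Euclidean distance of brightest probe sets, each centred on its own mean. The nearest was the defensin gene Defb41 (distance 0.23), followed by Igfbp2, which binds insulin-like growth factors (0.28), and the LIM homeobox gene Lhx2 (0.31). The transcriptional coactivator gene Eya4 (0.36) and the zinc finger homeobox gene Zfhx4 (0.42) came next. Over 4 arrays this likeness is mostly a difference of similar size between the lines. Zfhx4, for example, read 7.85 and 7.98 in NSCL61-sox11 and 4.57 and 4.96 in NSCL61. Defb41 read 6.94 and 7.15 in NSCL61-sox11 and 3.46 and 3.82 in NSCL61. In NSCL61 both genes lay below the level filter of 5.15, which is set on the mean of all arrays. They passed it through their NSCL61-sox11 levels, and the size of their differences, and so their distance to Gnai1, is uncertain.

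Several members lie beside another G alpha gene in the genome. Gnai1 neighbours Gnat3, Gnai3 neighbours Gnat2, Gnaq neighbours Gna14 and Gna11 neighbours Gna15, while Gnai2 and Gnat1 are separated by Slc38a3. None of the 2 tested partners was called: Gnat2, a cone transducin gene, differed by -0.32 (SE 0.12, limma adjusted p = 0.115) and Gna15, of the Gq class, by -0.12 (SE 0.15, limma adjusted p = 0.640). Gnat2 read 5.76 and 5.98 in NSCL61-sox11 and 6.22 and 6.16 in NSCL61. Among the 40 nearest protein-coding genes, 2 on each side of each member, 27 were tested; 1 rose and 2 fell, where 10.0% of all genes rose and 9.19% fell. They were Tle2 near Gna11, up by 1.70, and Npepl1 and Ctsz near Gnas, down by 0.69 and 0.71. The only tested gene of the 4 nearest Gnai1 was Phtf2, which differed by -0.023 (SE 0.10).

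The signalling partners of G alpha subunits were taken from 13 lists of gene names. Of 157 genes, 113 were tested, and 23 rose, 8 fell and 82 did not pass, where 10.0% of all tested genes rose and 9.19% fell. The median difference of the 113 was 0.033 and that of all genes -0.019. Among the called genes examined singly under other scalings, poly-A scaling ended the calls of Gng2, Rap1gap, Ric8a, Adcy1, Adcy9, Pde4b, Pde7b, Bdnf, Plcb1, Arhgef25, Grk5, Lpar1, Ackr3 and S1pr2. Those of Rap1gap, Arhgef25 and S1pr2 were also lost with hybridisation control scaling. The called genes Rgs10, Rgs17, Pde3b, Prkacb, Prkar2b and Lpar2 were not examined singly in this way.

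Beta and gamma subunits bind the inactive G alpha subunit and signal on their own once released. Of 4 beta genes tested, 1 fell and 3 did not pass (median difference 0.050). Gnb1 read 10.85 and 10.90 in NSCL61-sox11, against 11.25 and 11.26 in NSCL61, and fell by 0.38 (SE 0.06, limma adjusted p = 0.0122). Its second tested probe set was not called, and leaving out either NSCL61 array ended the call (adjusted p = 0.118 and 0.125). Of 9 gamma genes, 2 rose and 7 did not pass (median 0.084). Gng10 read 11.21 and 11.14 in NSCL61-sox11, against 9.86 and 9.75 in NSCL61, a rise of 1.37 (SE 0.08, limma adjusted p = 0.000223). Gng2 rose by 0.71 (SE 0.14, limma adjusted p = 0.0183), and leaving out either NSCL61 array ended this call too (adjusted p = 0.111 and 0.0652).

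RGS proteins speed up GTP hydrolysis by G alpha subunits, mostly of the Gi and Gq classes, and so shorten the signal. Of 13 tested, 4 rose, 2 fell and 7 did not pass, with a median of 0.41. Rgs2, which acts mainly on Gq, read 6.78 and 7.44 in NSCL61-sox11, against 4.51 and 5.05 in NSCL61, a 5.02-fold rise (limma adjusted p = 0.00267). Its NSCL61 levels lay below the level filter of 5.15, so the size of this rise is uncertain. Rgs5, also a marker of pericytes, read 6.99 and 7.31 in NSCL61-sox11, against 4.97 and 5.44 in NSCL61, a 3.85-fold rise (limma adjusted p = 0.00149). It was called on 1 of 2 tested probe sets, and their mean differed by 1.23 in place of 1.94. The other mural and endothelial markers tested, Cdh5, Kdr and Cspg4, were not called. Rgs20, which acts on Gz, read 7.34 and 7.63 in NSCL61-sox11, against 8.50 and 8.65 in NSCL61, and fell 2.13-fold (limma adjusted p = 0.00328). Rgs16 fell 2.10-fold (limma adjusted p = 0.0110), on each of its 3 tested probe sets. The other RGS genes that rose were Rgs10, by 0.92 (SE 0.12, limma adjusted p = 0.00480), and Rgs17. The Rgs17 rise was 0.63 (SE 0.16, limma adjusted p = 0.0451), called on 1 of 2 tested probe sets.

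Of 10 chaperones, exchange factors and GoLoco proteins, 1 rose, 2 fell and 7 did not pass (median 0.082). Ccdc88c, a member of the Girdin family, fell by 0.79 (SE 0.10, limma adjusted p = 0.00469), though on 1 of 2 tested probe sets, whose mean differed by -0.45. Rap1gap, a GTPase-activating protein of Rap1, rose by 0.48 (SE 0.10, limma adjusted p = 0.0261). Ric8a, a chaperone of Gi, Gq and G12/13 subunits, fell by 0.36 (SE 0.09, limma adjusted p = 0.0372), on 1 of 4 tested probe sets. Omitting either NSCL61 array or NSCL61-sox11 array 1 ended the calls of Rap1gap and Ric8a (adjusted p = 0.0765 to 0.145 for Rap1gap and 0.0861 to 0.214 for Ric8a). The GoLoco genes Gpsm1 and Gpsm2 differed by 0.23 (SE 0.15) and 0.27 (SE 0.09) and were not called.

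On the cAMP arm, 2 of 7 adenylyl cyclase genes rose and 5 did not pass (median -0.043). Adcy9 rose by 1.00 (SE 0.18, limma adjusted p = 0.0130), and Adcy1, a calcium-stimulated form found in neurons, by 0.70 (SE 0.12, limma adjusted p = 0.0127). Leaving out NSCL61 array 1 ended the Adcy9 call (adjusted p = 0.0797) and leaving out array 2 the Adcy1 call (adjusted p = 0.0754); without probe sets named _x_at or _s_at Adcy9 differed by 0.18. Of 17 phosphodiesterase and protein kinase A genes, 5 rose, 2 fell and 10 did not pass (median 0.19). Of the 9 phosphodiesterase genes among them, 4 rose and 1 fell. The one that fell, Pde3b, read 9.82 and 10.32 in NSCL61-sox11, against 10.72 and 11.21 in NSCL61, a 1.87-fold fall (limma adjusted p = 0.0315). Pde8a read 9.83 and 9.47 in NSCL61-sox11, against 7.66 and 7.81 in NSCL61, a 3.77-fold rise (limma adjusted p = 0.000541). Pde4d read 7.21 and 7.54 in NSCL61-sox11, against 5.83 and 6.18 in NSCL61, a 2.58-fold rise (limma adjusted p = 0.00359). Pde4b and Pde7b rose 2.05-fold and 2.30-fold, and Pde7b was no longer called when NSCL61 array 1 was left out (adjusted p = 0.0692). The mean of Pde7b in NSCL61, 5.04, lay below the level filter, so the size of its rise is uncertain. Of 10 tested genes that CREB is known to activate, 2 rose, Pde4d and the neurotrophin gene Bdnf (2.17-fold, limma adjusted p = 0.00833), and 8 did not pass (median 0.28).

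Of 13 tested effectors of Gq and of G12/13, 2 rose and 11 did not pass (median 0.033). Plcb1, a phospholipase C beta, rose by 0.98 (SE 0.22, limma adjusted p = 0.0293) on 1 of 4 tested probe sets, and Arhgef25, a Gq-activated RhoA exchange factor, by 0.45 (SE 0.10, limma adjusted p = 0.0268), also on 1 of 4. Leaving out NSCL61 array 1 ended both calls (adjusted p = 0.123 for Plcb1 and 0.190 for Arhgef25), as did leaving out NSCL61-sox11 array 2 (adjusted p = 0.0562 and 0.0624). Arhgef25 was also not called with NSCL61 array 2 omitted (adjusted p = 0.0877). Among potassium channels opened by beta and gamma subunits, 0 of 3 tested passed in limma's fit (median -0.078), with Kcnj3 and Kcnj6 at differences of -0.12 (SE 0.13) and -0.078 (SE 0.10).

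Of 21 tested genes in the list of Gi-coupled receptors, 5 rose, 0 fell and 16 did not pass (median 0.019). The list holds Ackr3, which signals through arrestins rather than G proteins, and without it 4 of 20 rose. The 5 are receptors of the lipids sphingosine 1-phosphate and lysophosphatidic acid, and the atypical CXCL12 receptor Ackr3. Of the other listed receptors of these lipids, Lpar4 differed by -0.66 (SE 0.25) and S1pr3 by -0.070 (SE 0.16), and neither was called. Lpar3 and S1pr5 lay below the level filter. S1pr1 read 7.53 and 8.15 in NSCL61-sox11, against 6.01 and 6.47 in NSCL61, a 3.03-fold rise (limma adjusted p = 0.00709). Lpar1 read 9.19 and 8.998 in NSCL61-sox11, against 7.95 and 8.14 in NSCL61, a 2.07-fold rise (limma adjusted p = 0.00238). Ackr3 read 7.57 and 8.37 in NSCL61-sox11, against 7.11 and 6.85 in NSCL61 (limma adjusted p = 0.0440). S1pr2 rose by 0.66 (SE 0.11, limma adjusted p = 0.00991). Without NSCL61 array 1 or array 2 the calls of Ackr3 (adjusted p = 0.118 and 0.198) and S1pr2 (adjusted p = 0.0809 and 0.0660) were lost. The Ackr3 call also ended with quantile normalization, without the intensity trend and in the fit to means of probe sets (adjusted p = 0.0529 to 0.0594), and its difference was 0.59 in place of 0.99 when NSCL61-sox11 array 2 was left out. Of 5 receptor kinases and arrestins tested, 1 rose and 1 fell (median -0.17). Grk5, a receptor kinase, rose by 0.97 (SE 0.21, limma adjusted p = 0.0258), a call that ended when NSCL61 array 2 was left out (adjusted p = 0.0589). Arrb1, which encodes beta-arrestin, read 6.26 and 6.39 in NSCL61-sox11, against 7.53 and 8.13 in NSCL61, a 2.84-fold fall (limma adjusted p = 0.00458).

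**Figure D4:**
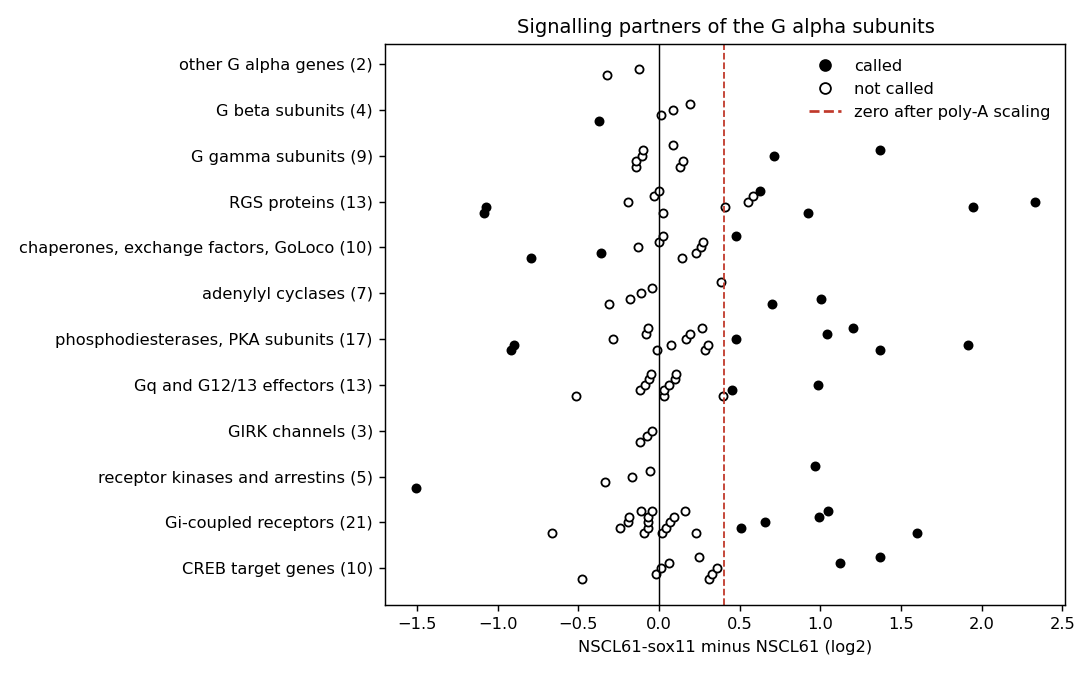
Difference between the lines (NSCL61-sox11 minus NSCL61, log2, horizontal axis) of each tested gene in 12 lists of G protein signalling partners, on its brightest tested probe set, with the number tested in parentheses; filled points were called and the vertical offset within a list only separates points. The largest rise is Rgs2 at 2.33 and the largest fall Arrb1 at -1.51, and the dashed line marks the zero after scaling to poly-A controls, at 0.40.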

How the data were processed

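Total RNA (5 μg) was labelled with biotin and read on Affymetrix arrays, per the labels' protocols. The deposited log2 values are the authors' processed value per probe set; they run from 2.13 to 14.62, base 2 is read from that range, and the authors' summarisation and normalization are not stated in the labels or files. Gene names come from the platform annotation of GEO: 34945 have 1 symbol, 932 several and 9160 none, and 64 are controls. Differences were tested two-sided in limma 3.58.1 under R 4.3.3 (lmFit, eBayes with intensity trend) on the brightest 60% of probe sets (27022), with 2 residual and 6.36 moderated degrees of freedom. A gene was represented by its brightest tested probe set. SE is moderated. Members below the filter come from a fit of all probe sets. The scripts were tested on simulated data. Members, lists and tests were chosen with earlier results of these data known. Named were all members, per list the up to 4 called genes of largest difference, or else the 2 brightest, and the 5 genes most like Gnai1; neighbours and marker genes were chosen later. Not all are described. Alternatives covered the filter, scaling, variance model, probe sets per gene, each array left out and a replicate block. Figures were drawn with matplotlib 3.10.9.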

Additional observations from a re-analysis of the deposited data

How the results depend on the processing

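Of 651 recomputed values of single genes, 558 kept direction and side of the threshold, 68 lost and 7 gained a call, and 18 turned sign. The number of member probe sets called, 10 on the deposited scale, was 3 with poly-A scaling, 4 with hybridisation control scaling, 16 with the replicate number as a block, and 4 to 10 with 1 array left out. Member genes called, 3 in all, were 1, 1, 5 and 1 to 3 under the same settings. Partner genes called, 31 in all, were 16 with poly-A scaling, 52 with the replicate block, and 18 to 34 with 1 array left out. The cause of these changes was not tested, beyond the smaller number of arrays. Same-numbered arrays deviated together (r = 0.41 across probe sets), but with 2 numbers per line, given only in titles, they were not treated as pairs. With the block the brightest probe sets of Gna12, Gna11 and, in the fit of all probe sets, Gnaz were called in addition. The centred ratio of Gnai1, 3.04, was 2.66 with the mean of probe sets, 2.82 without names ending in _x_at or _s_at and 2.95 to 3.12 with 1 array left out. Signs turned for Gnai2 with median centring (-0.015), poly-A scaling (-0.39) and hybridisation control scaling (-0.21). With poly-A scaling they turned for Gnai3 (-0.13), Gnaq (-0.0097), Gna11 (-0.20), Gna12 (-0.11) and Gna13 (-0.32), and with hybridisation control scaling for Gna11 (-0.013) and Gna13 (-0.13). Gnao1 became 0.48 with the mean of its probe sets, and Gnas 0.0082 with quantile normalization. Over the omission of each array in turn, values on both sides of 0 were found for Gnai2 (-0.011 to 0.035), Gnas (-0.046 to 0.029), Gna15 (-0.29 to 0.040) and Kcnj3 (-0.26 to 0.016). The number of arrays, 2 per line, limits the precision.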

Other observations

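Of 6 other G alpha genes listed, 2 were tested and 3 lay below the level filter. Gnat1, the rod transducin gene, read 4.41 and 4.34 in NSCL61-sox11 and 4.40 and 4.39 in NSCL61, and Gna14 read 4.92 and 5.13 in NSCL61-sox11 and 4.81 and 4.95 in NSCL61. Of 40 Gi-coupled receptor genes, 14 lay below the level filter and 5 had no probe set of their own.

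Of 6 tested subunit genes of protein kinase A, the main sensor of cAMP, 1 rose, 1 fell and 4 (Prkaca, Prkar1a, Prkar1b and Prkar2a) did not pass. The regulatory subunit gene Prkar2b read 10.20 and 10.09 in NSCL61-sox11, against 10.91 and 11.21 in NSCL61, and fell by 0.92 (SE 0.11, limma adjusted p = 0.00369) on each of its 3 tested probe sets. The catalytic subunit gene Prkacb rose by 0.47 (SE 0.09, limma adjusted p = 0.0186) on 1 of 2 tested probe sets. Poly-A scaling lowered every difference by 0.40, and whether the Prkacb call held on that scale was not examined. The immediate early gene Fos, a CREB target, varied within lines, with an SE of 0.91 beside a difference of -0.48.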
